A study of Mus musculus with 21 samples.

Results

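The chemokine genes of T cells and of the interferon response, 8 in all, were followed across the whole data set: Ccl3, Ccl4, Ccl5, Xcl1, Ccl1, Ccl22, Cxcl9 and Cxcl10. They were taken by name from the deposited expression table, which lists 13202 genes. All 8 were found, and all 8 were among the 12630 genes that passed a filter on low values and were tested. The table holds RPKM, read counts scaled to gene length and library size, for 21 libraries of poly(A) RNA in 7 groups of 3.

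All groups were cultures of mouse CD8 T cells, isolated from spleen and inguinal lymph nodes by removing other cells, activated for 48 h and kept in 10 ng/mL IL-2 until harvest on day 8. Polyclonal chronic cells (C57BL/6) were activated with plate-bound anti-CD3 and anti-CD28 and then met plate-bound anti-CD3 again every 48 h, whereas polyclonal acute cells (C57BL/6) were passaged without it. OT-I chronic cells carried the OT-I transgenic T cell receptor, were activated with the SIINFEKL peptide of ovalbumin, and were then co-cultured with B16-F10 melanoma cells, pretreated with 1 ng/mL interferon-γ, and more peptide. OT-I acute cells had the same melanoma co-culture without further peptide. In the N-acetylcysteine experiment, on C57BL/6 cells, NAC chronic cells met anti-CD3 repeatedly in 10 mM N-acetylcysteine, a thiol antioxidant, from 48 h onwards. Vehicle chronic cells were restimulated without N-acetylcysteine, and vehicle acute cells were not restimulated. None of the 21 libraries held acute cells with N-acetylcysteine, so its effect without restimulation was not measured. No label states whether the 3 libraries of a group came from separate mice or cultures. Each p-value therefore sets a difference between groups against the spread among libraries, which may be technical only. In the main fit that spread was estimated over all 7 groups together.

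Chemokines are small secreted proteins that steer leukocytes through G protein-coupled receptors. Ccl3 and Ccl5 bind CCR1. Activated CD8 T cells secrete Ccl3, Ccl4 and Ccl5 and with them draw in monocytes, macrophages and other T cells. Xcl1 binds XCR1 on cross-presenting dendritic cells, Ccl1 binds CCR8 and Ccl22 binds CCR4, receptors that are known from regulatory and type 2 helper T cells. Cxcl9 and Cxcl10 bind CXCR3 on effector T cells and are classic interferon-induced genes of macrophages, stromal cells and tumour cells.

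Promoters of 4 of the genes are printed because these genes differed strongly between the culture systems: Cxcl9 and Cxcl10, whose high levels were found in the co-cultures with melanoma cells, and Ccl22 and Ccl1, which were highest in polyclonal chronic libraries. Each is the 250 bases before the transcription start, from RefSeq on build GRCm38.p6, which is not the build mm9 that the submitters' processing notes name. Capitals mark matches to GGGANTTCC or to GGGA and TTCC with any 2 bases between them (NF-kB), to GAAA repeated after any 2 bases (the interferon-stimulated response element) and to TGANTCA (AP-1), searched on both strands.
Cxcl9 promoter, chr5:92328080-92328329, minus strand: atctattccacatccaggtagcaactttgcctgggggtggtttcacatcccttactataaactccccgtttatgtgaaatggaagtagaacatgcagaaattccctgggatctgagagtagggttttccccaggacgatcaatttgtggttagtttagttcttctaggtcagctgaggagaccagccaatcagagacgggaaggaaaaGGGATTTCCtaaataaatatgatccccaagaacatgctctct
Cxcl10 promoter, chr5:92348890-92349139, minus strand: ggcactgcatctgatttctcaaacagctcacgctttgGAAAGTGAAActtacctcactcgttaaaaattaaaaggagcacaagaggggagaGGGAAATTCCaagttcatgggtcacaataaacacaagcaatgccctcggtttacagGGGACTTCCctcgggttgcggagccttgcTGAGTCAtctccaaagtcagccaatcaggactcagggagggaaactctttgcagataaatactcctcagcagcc
Ccl1 promoter, chr11:82179813-82180062, minus strand: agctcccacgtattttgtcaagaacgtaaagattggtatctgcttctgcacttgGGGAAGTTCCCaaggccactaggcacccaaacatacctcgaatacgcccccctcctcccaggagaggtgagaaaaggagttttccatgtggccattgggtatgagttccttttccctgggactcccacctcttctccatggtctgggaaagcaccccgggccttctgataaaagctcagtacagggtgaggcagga
Ccl22 promoter, chr8:94745434-94745683, plus strand: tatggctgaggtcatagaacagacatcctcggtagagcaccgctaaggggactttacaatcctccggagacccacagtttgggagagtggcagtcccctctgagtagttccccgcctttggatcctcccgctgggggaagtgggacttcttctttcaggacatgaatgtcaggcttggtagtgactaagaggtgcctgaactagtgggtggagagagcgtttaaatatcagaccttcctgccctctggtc

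Cxcl10 held 4 matches, which were the NF-kB forms 103 and 159 bases before the start, the response element 213 bases before it and the AP-1 form 74 bases before it. Cxcl9 held a single NF-kB match 42 bases before the start. In Ccl1 the capitals cover 2 overlapping NF-kB matches, on opposite strands and 196 and 195 bases before the start. Ccl22 had none of these letters in this window. Among 32851 promoters of the same length, 1.43% held GGGANTTCC, 1.21% the longer NF-kB form, 2.98% the response element and 6.75% TGANTCA. RefSeq promoters were at hand for 6 of the 8 genes, and those of Ccl3 and Xcl1 held none of these 4 forms. The interferon-γ activation site TTCNNNGAA, found in 7.02% of promoters, was also searched and occurred in none of the 6. The shorter NFAT core GGAAA, found in 55.6% of promoters and not capitalised, occurred in all of the 6 except Ccl22. In the genome, Ccl3 and Ccl4 are neighbours on chromosome 11, with Ccl9 and Ccl6 between them and Ccl5. Cxcl9 and Cxcl10 lie on chromosome 5, where Cxcl10 sits inside the span of Art3, and the RefSeq record of Ccl4 overlaps Ccl3. Nothing states whether reads were counted by strand, so overlapping genes may share reads.

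Libraries held 5347355 to 15147347 reads in genes in the polyclonal groups, 13121180 to 25218890 in the OT-I groups and 14421378 to 17539278 in the NAC and vehicle groups. Genes with a mean under 1 RPKM had raised values in polyclonal acute library 2, polyclonal chronic library 2 and OT-I acute library 3, with medians of 1.36, 0.888 and 1.12 RPKM, against 0.0451 to 0.478 RPKM in the other 18 libraries. The defining CD8 marker was low in the polyclonal chronic libraries: Cd8a was at 8.30 to 8.63 RPKM in them and 101 to 102 RPKM in polyclonal acute libraries, while Cd4 was at 303 to 317 RPKM in polyclonal chronic and 64.1 to 69.7 RPKM in polyclonal acute libraries. B cell markers rose there too, 7 of 7, with summed levels of 216 to 236 RPKM in polyclonal chronic and 3.40 to 15.9 RPKM in polyclonal acute libraries. Of all tested genes, 28.6% were called higher and 35.5% lower in that comparison, by the limma test described below. In the OT-I libraries, 8 melanocyte markers summed to 3916 to 3998 RPKM in chronic and 7207 to 7498 RPKM in acute libraries. Cd4 was at 46.7 to 48.9 RPKM in NAC chronic, 2.16 to 2.63 RPKM in vehicle chronic and 13.0 to 14.7 RPKM in vehicle acute libraries. In bulk RNA, fewer cells of a type and less RNA per cell cannot be told apart.

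The 8 genes together made up far more of the RNA after repeated stimulation, but from different members in each culture system. Their summed level was 3825 ± 253 RPKM in polyclonal chronic and 139 ± 11.8 RPKM in polyclonal acute libraries (SD, n = 3 each, as for all means that follow). It was 2911 ± 47.9 RPKM in OT-I chronic and 487 ± 24.2 RPKM in OT-I acute libraries. The N-acetylcysteine experiment had 731 ± 13.0 RPKM in NAC chronic, 2606 ± 51.5 RPKM in vehicle chronic and 187 ± 13.8 RPKM in vehicle acute libraries. Within each experiment the libraries of the groups did not overlap.

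Which gene led the sum differed. In polyclonal chronic libraries Ccl3 gave 43.1% of it, Ccl22 24.5% and Ccl4 23.9%, whereas Ccl5 gave 66.2% in polyclonal acute libraries. Cxcl10 led in both OT-I groups, with 61.0% in chronic and 68.5% in acute libraries, and Ccl5 followed with 16.4% in chronic and 28.1% in acute libraries. Vehicle chronic libraries were led by Ccl3 with 37.0%, Ccl4 with 33.2% and Xcl1 with 21.7%, and vehicle acute libraries by Ccl5 with 84.6%. NAC chronic libraries differed from both in their make-up, with Xcl1 at 50.7%, Ccl5 at 20.1%, Ccl4 at 13.9% and Ccl3 at 10.9%.

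**Figure D1:**
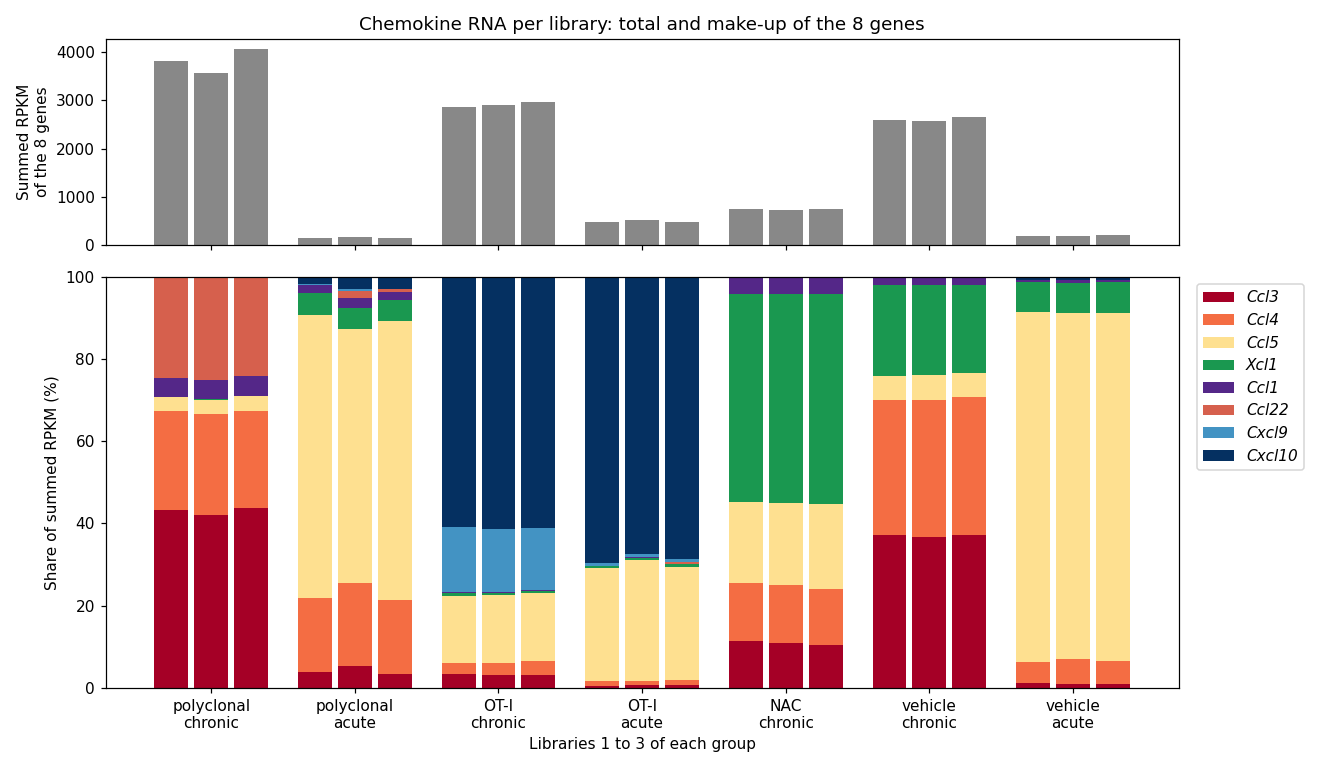
Upper panel, summed RPKM of the 8 chemokine genes in each library, 3 bars per group. Lower panel, the share of each gene in that sum, in percent. The libraries of a group look alike, with Ccl3, Ccl4 and Ccl22 filling the polyclonal chronic bars, Cxcl10 the OT-I bars, Xcl1 50.7% of the NAC chronic bars and Ccl5 84.6% of the vehicle acute bars.

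Ccl3, which encodes the macrophage-attracting MIP-1α, was low in every acute group and rose in every chronic one. It was at 1653, 1503 and 1789 RPKM in polyclonal chronic libraries, against 5.04, 8.29 and 4.43 RPKM in polyclonal acute libraries. In OT-I cultures it was at 95.2, 92.6 and 97.7 RPKM in chronic and 2.67, 3.37 and 3.86 RPKM in acute libraries. Every chronic library lay above every acute one. In the N-acetylcysteine experiment Ccl3 was at 84.6, 77.9 and 76.5 RPKM in NAC chronic, 963, 942 and 988 RPKM in vehicle chronic and 2.11, 1.64 and 1.99 RPKM in vehicle acute libraries. These 3 groups were fully apart from each other. Macrophage and dendritic cell markers, 7 of 10 in the table, summed to 32.6 to 34.5 RPKM in NAC chronic, 12.1 to 12.9 RPKM in vehicle chronic and 2.79 to 4.02 RPKM in vehicle acute libraries. Of the 7, 4 rose and none fell in vehicle chronic against acute libraries (all tested genes 24.5% higher and 34.4% lower). With N-acetylcysteine 2 rose, 1 fell and 4 were not called against vehicle chronic libraries (all tested genes 38.5% higher and 22.6% lower). Most of each sum was Itgax, at 25.7 to 27.2 RPKM in NAC chronic, 7.10 to 7.83 RPKM in vehicle chronic and 2.02 to 2.79 RPKM in vehicle acute libraries. Mpeg1 was at most 0.121 RPKM in all 3 groups. The part of these cells in the levels of Ccl3 and Ccl4 was not tested.

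The size of the change was tested with limma on log2(RPKM + 1), a scale that understates the change of low genes, with Benjamini-Hochberg adjustment over the 12630 genes and a call at adjusted p under 0.05. Ccl3 rose by a log2 change of 7.93 (SE 0.134, adjusted p = 2.06e-20) in polyclonal chronic libraries. In OT-I chronic libraries it rose by 4.49 (SE 0.134, adjusted p = 7.11e-16), a ratio of mean RPKM of 28.8. The rise in vehicle chronic libraries was 8.38 (SE 0.134, adjusted p = 5.9e-21), a ratio of means of 505. With N-acetylcysteine it fell to 8.27% of the vehicle chronic mean (log2 change -3.58, SE 0.134, adjusted p = 9.33e-15). That level was still 41.7 times the vehicle acute mean (log2 change 4.80, SE 0.134, adjusted p = 4.64e-17).

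Ccl4, which encodes MIP-1β, moved in the same directions as its neighbour Ccl3, with higher levels in the acute groups. It was at 917, 872 and 956 RPKM in polyclonal chronic and 23.5, 30.9 and 24.2 RPKM in polyclonal acute libraries (log2 change 5.08, SE 0.0871, adjusted p = 2.33e-20). OT-I libraries had 82.4, 84.5 and 94.2 RPKM in chronic and 5.02, 5.70 and 5.89 RPKM in acute cultures (log2 change 3.75, SE 0.0871, adjusted p = 1.02e-17). In both systems the chronic libraries stood clear of the acute ones. Ccl4 in the N-acetylcysteine experiment was at 103, 101 and 102 RPKM in NAC chronic, 848, 855 and 894 RPKM in vehicle chronic and 9.09, 11.3 and 11.3 RPKM in vehicle acute libraries. It rose in vehicle chronic libraries by a log2 change of 6.23 (SE 0.0871, adjusted p = 8.27e-22). N-acetylcysteine left 11.8% of the vehicle chronic mean (log2 change -3.08, SE 0.0871, adjusted p = 1.47e-16).

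The ratio of Ccl3 to Ccl4 RPKM was not constant. It was 1.80 ± 0.0734 in polyclonal chronic and 0.222 ± 0.0432 in polyclonal acute libraries. In OT-I cultures it was 1.10 ± 0.0581 in chronic and 0.593 ± 0.0613 in acute libraries. The N-acetylcysteine experiment gave ratios of 0.783 ± 0.0347 in NAC chronic, 1.11 ± 0.0192 in vehicle chronic and 0.184 ± 0.0442 in vehicle acute libraries. The ratio did not overlap between the groups of an experiment, so Ccl3 was the more abundant of the pair in all chronic libraries without N-acetylcysteine and the less abundant in all acute and NAC chronic ones. An exact two-sided permutation test of the ratio gave p = 0.1 in each chronic against acute comparison and in NAC chronic against vehicle chronic libraries, the smallest that 3 libraries against 3 allow.

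Ccl5, which encodes RANTES, behaved unlike Ccl3 and Ccl4: it was already high in acute cells. It was at 134, 128 and 145 RPKM in polyclonal chronic and 90.6, 94.4 and 90.7 RPKM in polyclonal acute libraries, a ratio of means of 1.48 (log2 change 0.55, SE 0.0602, adjusted p = 8.25e-08). OT-I chronic libraries had 467, 479 and 491 RPKM and OT-I acute libraries 129, 151 and 130.3 RPKM, a ratio of means of 3.50 (log2 change 1.80, SE 0.0602, adjusted p = 4.16e-15). The chronic libraries were the higher ones in both systems. The N-acetylcysteine experiment had 146, 144 and 152 RPKM in NAC chronic, 154, 153 and 158 RPKM in vehicle chronic and 149.7, 154 and 171 RPKM in vehicle acute libraries. Vehicle chronic and vehicle acute libraries overlapped, with a log2 change of -0.03 (SE 0.0602, adjusted p = 0.753). NAC chronic libraries lay just below the vehicle chronic ones without passing the test (log2 change -0.08, SE 0.0602, adjusted p = 0.298). Ccl5 passed as lower with N-acetylcysteine once libraries were rescaled to a common median (adjusted p = 0.00592) or only these 2 groups were fitted (adjusted p = 0.0347), within a range of 0.00592 to 0.506 over all alternatives.

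Xcl1, which encodes lymphotactin, split the culture systems. It was at 0.924, 2.06 and 1.45 RPKM in polyclonal chronic libraries, which is 5 to 11 reads each, and 6.997, 7.82 and 6.74 RPKM in polyclonal acute libraries. There it fell, to a level 4.87-fold lower (log2 change -1.75, SE 0.120, adjusted p = 7.22e-11). OT-I chronic libraries had 17.5, 16.5 and 19.2 RPKM and OT-I acute libraries 2.23, 3.12 and 3.04 RPKM, a rise of 2.31 on the log2 scale (SE 0.120, adjusted p = 3.19e-12). Xcl1 in the N-acetylcysteine experiment was at 372, 363 and 377 RPKM in NAC chronic, 567, 560.3 and 572 RPKM in vehicle chronic and 12.7, 13.3 and 15.5 RPKM in vehicle acute libraries. With vehicle, Xcl1 rose by 5.26 on the log2 scale under repeated anti-CD3 (SE 0.120, adjusted p = 1.75e-18), the opposite of its direction in the polyclonal experiment.

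N-acetylcysteine left 65.4% of the vehicle chronic mean of Xcl1 (log2 change -0.61, SE 0.120, adjusted p = 0.000174), a far larger share than for Ccl3. The ratio of Xcl1 to Ccl3 was 4.66 ± 0.267 in NAC chronic and 0.588 ± 0.00796 in vehicle chronic libraries, with no overlap (exact two-sided permutation p = 0.1, the smallest possible). The NK cell markers, of which 3 of 4 are in the table, summed to 29.1 to 32.1 RPKM in NAC chronic, 58.4 to 60.1 RPKM in vehicle chronic and 45.7 to 53.1 RPKM in vehicle acute libraries. Klre1 was at 21.2 to 24.7 RPKM in NAC chronic, 47.3 to 49.6 RPKM in vehicle chronic and 37.2 to 44.1 RPKM in vehicle acute libraries. Ncr1 was at most 0.454 RPKM in these 3 groups. Of the 3 markers, 1 rose and none fell in vehicle chronic against acute libraries (all tested genes 24.5% higher and 34.4% lower). With N-acetylcysteine none rose and 2 fell against vehicle chronic libraries (all tested genes 38.5% higher and 22.6% lower). In the polyclonal experiment the 3 markers summed to 6.68 to 8.11 RPKM in chronic and 42.5 to 49.7 RPKM in acute libraries. The OT-I sums were 22.1 to 24.4 RPKM in chronic and 5.04 to 7.25 RPKM in acute libraries. Ncr1 was there at 4.46 to 6.16 RPKM in chronic and 0.538 to 1.35 RPKM in acute libraries. NK cells also make Xcl1, Ccl3, Ccl4 and Ccl5, and their part in these results was not tested.

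Ccl1, the ligand of CCR8, rose in all chronic groups and was highest in polyclonal chronic libraries. It was at 179, 172 and 199 RPKM in polyclonal chronic and 2.32, 3.70 and 2.77 RPKM in polyclonal acute libraries, a ratio of means of 62.5 (log2 change 5.56, SE 0.130, adjusted p = 2.39e-18). OT-I libraries were low throughout, with 4.79, 4.32 and 5.60 RPKM in chronic and 0.246, 0.414 and 0.755 RPKM in acute cultures, where the level rests on 3 to 5 reads per library (log2 change 2.01, SE 0.130, adjusted p = 8e-11). Over the alternatives that change of Ccl1 ranged from 1.90 to 3.46, all of them called. In spite of the few reads the groups were apart. The N-acetylcysteine experiment had 31.8, 30.2 and 31.5 RPKM in NAC chronic, 55.0, 54.5 and 51.6 RPKM in vehicle chronic and 0.706, 1.35 and 0.920 RPKM in vehicle acute libraries. Ccl1 rose by 4.79 with vehicle (SE 0.130, adjusted p = 2.67e-17). N-acetylcysteine left 58.0% of the vehicle chronic mean (log2 change -0.77, SE 0.130, adjusted p = 3.63e-05), a share close to that of Xcl1.

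Ccl22, a ligand of CCR4 best known from dendritic cells and macrophages, was abundant in a single group. It was at 937, 891 and 986 RPKM in polyclonal chronic libraries, from 12480 to 27048 reads. Polyclonal acute libraries had 0.259, 2.38 and 0.773 RPKM, from 6 to 23 reads, the highest being library 2 with raised low genes (log2 change 8.90, SE 0.269, adjusted p = 1.35e-16). In OT-I cultures it was at 2.33, 2.32 and 2.11 RPKM in chronic and 0.0915, 0.404 and 1.64 RPKM in acute libraries, again with the library of raised low genes highest (log2 change 1.03, SE 0.269, adjusted p = 0.00276). The chronic libraries were higher in both systems, and the OT-I log2 change of Ccl22 ranged from 0.76 to 2.82 over the alternatives, all of them called. In the N-acetylcysteine experiment Ccl22 was at 0.257, 0.230 and 0.108 RPKM in NAC chronic, 0.0346, 0.0630 and 0.229 RPKM in vehicle chronic and 0.230, 0.225 and 0.160 RPKM in vehicle acute libraries. These levels correspond to 1 to 7 reads, the groups overlapped, and neither contrast passed the test (adjusted p = 0.766 for NAC chronic against vehicle chronic, adjusted p = 0.749 for vehicle chronic against vehicle acute).

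The genes that stood beside Ccl22 in polyclonal chronic libraries included markers of other cells. The B cell marker Cd79a was at 46.6 to 53.4 RPKM in polyclonal chronic and 0.588 to 2.11 RPKM in polyclonal acute libraries. Macrophage and dendritic cell markers, of which 7 of 10 are in the table, summed to 15.6 to 20.5 RPKM in polyclonal chronic and 18.6 to 31.2 RPKM in polyclonal acute libraries. Of these 7, 2 rose and 2 fell (all tested genes 28.6% higher and 35.5% lower). Mpeg1 and Zbtb46 rose, to 4.95 to 5.37 RPKM and 3.01 to 3.64 RPKM in polyclonal chronic libraries, against 0.144 to 1.29 RPKM and 0.187 to 1.29 RPKM in polyclonal acute ones. Itgax and Itgam fell, to 2.26 to 3.82 RPKM and 2.12 to 3.37 RPKM in polyclonal chronic libraries, against 13.98 to 15.8 RPKM and 3.07 to 5.71 RPKM in polyclonal acute ones. The part of these cells, and of Cd4-expressing cells, in the levels of Ccl22, Ccl1 and Xcl1 was not tested.

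Cxcl9 and Cxcl10, both ligands of CXCR3, were OT-I co-culture genes in these data. Cxcl9 was at 455, 444 and 446 RPKM in OT-I chronic and 3.49, 3.79 and 3.91 RPKM in OT-I acute libraries, a ratio of means of 120.1 (log2 change 6.57, SE 0.146, adjusted p = 6.83e-18). Cxcl10 was at 1747, 1775 and 1809 RPKM in OT-I chronic and 327, 347 and 326 RPKM in OT-I acute libraries, a ratio of means of 5.33 (log2 change 2.41, SE 0.157, adjusted p = 8.96e-11). Both genes rose with no overlap, and Cxcl10 was already the highest of the 8 genes in OT-I acute libraries. The ratio of Cxcl10 to Cxcl9 was 3.97 ± 0.112 in OT-I chronic and 89.5 ± 5.27 in OT-I acute libraries. Melanoma cells were present in both groups, and their RNA cannot be told apart from that of the T cells. The summed melanocyte markers were lower in OT-I chronic libraries, and B cell markers (6 of 7) were higher. Of all tested genes, 22.4% were called higher and 36.2% lower in this comparison. Of the 7 macrophage and dendritic cell markers, Mpeg1 and Cd14 rose, none fell and 5 were not called, with sums of 20.7 to 21.7 RPKM in OT-I chronic and 3.95 to 10.4 RPKM in OT-I acute libraries. Mpeg1 was at 14.6 to 16.4 RPKM in OT-I chronic and 1.82 to 2.06 RPKM in OT-I acute libraries. The part of melanoma cells, B cells, macrophages and NK cells, whose summed markers were also higher in OT-I chronic libraries, in these levels was not tested.

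Outside the melanoma co-cultures both genes were low. Cxcl9 was at 0.160, 0.756 and 0.227 RPKM in polyclonal chronic and 0.161, 0.837 and 0.281 RPKM in polyclonal acute libraries, from 5 to 17 reads and 6 to 13 reads (log2 change -0.04, SE 0.146, adjusted p = 0.811). In the N-acetylcysteine experiment it had 0 to 2 reads per NAC chronic library, 0 to 1 per vehicle chronic library and 0 to 5 per vehicle acute library. A count of 0 allows up to 3 reads, which is 0.0589 to 0.0716 RPKM of Cxcl9 in these libraries by counting error alone. No difference was detectable at this depth. Beside these low polyclonal values, the melanocyte gene Tyrp1 was at 5.63 to 10.1 RPKM in polyclonal chronic and 5.21 to 15.3 RPKM in polyclonal acute libraries, although the labels name no melanoma cells there, and at 0 in all libraries of the N-acetylcysteine experiment. The part of melanoma cell RNA in the polyclonal values of Cxcl9 and of Cxcl10 was not tested.

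Cxcl10 had low but countable levels outside the co-cultures. It was at 2.11, 3.64 and 1.68 RPKM in polyclonal chronic and 2.41, 4.59 and 3.92 RPKM in polyclonal acute libraries, and these ranges overlapped. The fall passed the test (log2 change -0.43, SE 0.157, adjusted p = 0.0225), but not with only the compared groups in the fit (adjusted p = 0.179), with voom on recovered reads (adjusted p = 0.154), or without polyclonal acute library 2 (adjusted p = 0.145), polyclonal acute library 3 (adjusted p = 0.0814), polyclonal chronic library 1 (adjusted p = 0.0834) or polyclonal chronic library 3 (adjusted p = 0.166). Over all alternatives the adjusted p ranged from 0.000251 to 0.179. Cxcl10 in the N-acetylcysteine experiment was at 0.0604, 0.126 and 0.0590 RPKM in NAC chronic, 0.456, 0.622 and 0.324 RPKM in vehicle chronic and 1.35, 1.36 and 1.48 RPKM in vehicle acute libraries. It was 2.99-fold lower in vehicle chronic than in vehicle acute libraries (log2 change -0.71, SE 0.157, adjusted p = 0.000556), the opposite of its direction in OT-I cultures. With N-acetylcysteine 1 to 2 reads were left per library, against 6 to 12 with vehicle (log2 change -0.44, SE 0.157, adjusted p = 0.0212). That call did not pass without vehicle chronic library 2 (adjusted p = 0.0898), NAC chronic library 1 (adjusted p = 0.0535) or NAC chronic library 3 (adjusted p = 0.0539), in a range of 6.16e-06 to 0.0898 over all alternatives. At these low levels the log2 change of Cxcl10 also varied in size, from -2.16 to -0.36 with N-acetylcysteine, from -1.57 to -0.64 between vehicle chronic and vehicle acute libraries and from -3.73 to -1.12 between NAC chronic and vehicle acute libraries.

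**Figure D2:**
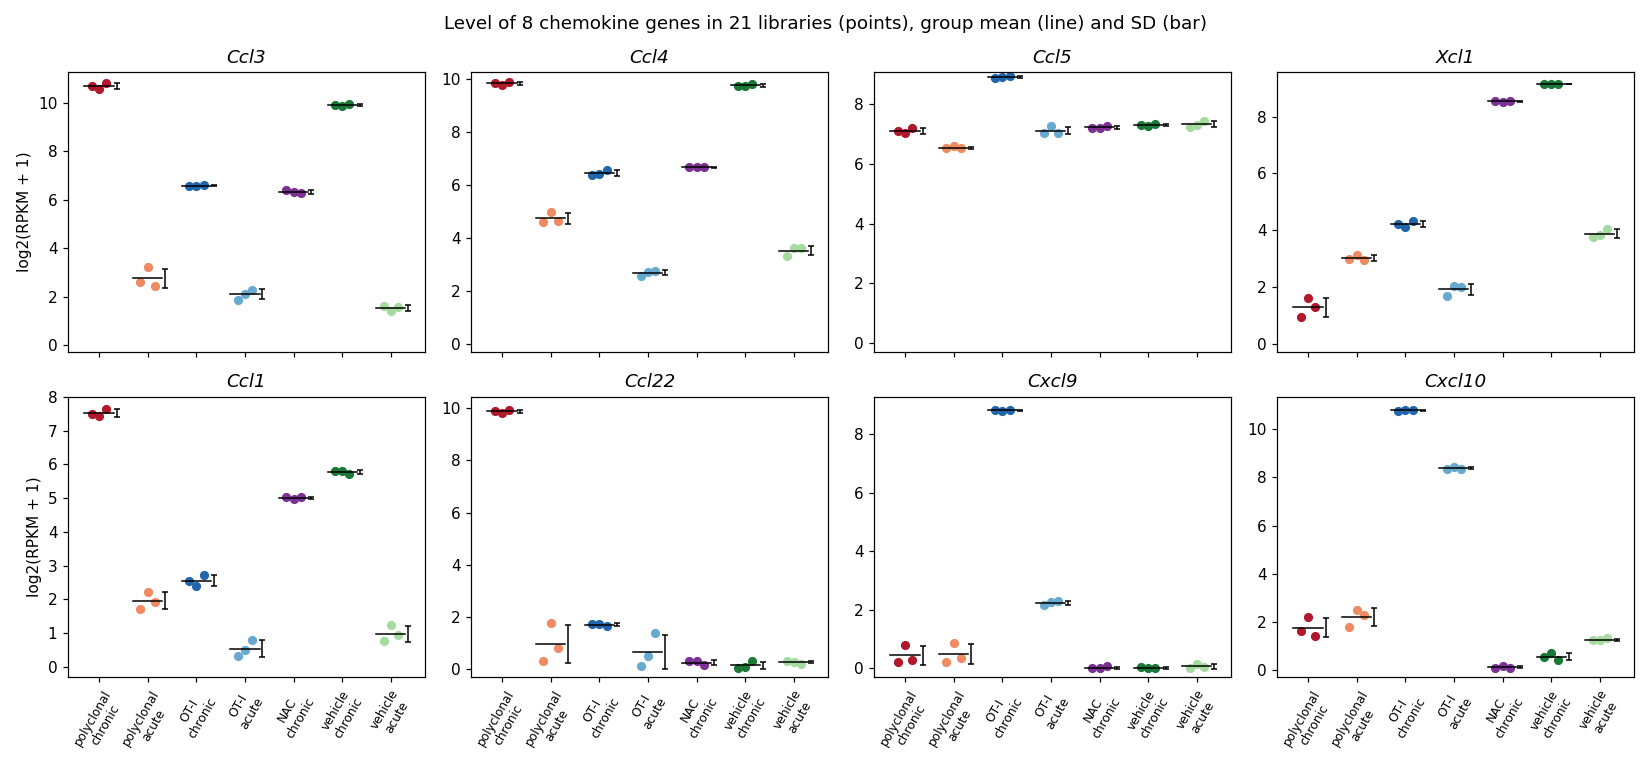
Level of each of the 8 chemokine genes on a log2(RPKM + 1) axis, which differs between panels, in the 7 groups. Points are the 3 libraries of a group, lines their mean and bars their SD. Ccl22 is high in the 3 polyclonal chronic libraries (891 to 986 RPKM), Cxcl9 in the OT-I chronic libraries (444 to 455 RPKM) and Cxcl10 in both OT-I groups. Xcl1 is high in NAC chronic (363 to 377 RPKM) and vehicle chronic libraries (560.3 to 572 RPKM).

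Counted over the 8 genes, 5 rose and 2 fell in polyclonal chronic against acute libraries, where 28.6% of all tested genes were called higher and 35.5% lower (64.1% either way). Ccl1, Ccl3, Ccl4, Ccl5 and Ccl22 rose and Xcl1 and Cxcl10 fell, Cxcl10 with overlapping libraries and not under every alternative. The median log2 change was 2.82, against -0.08 over all tested genes. In OT-I chronic against acute libraries all 8 rose, with 22.4% of tested genes called higher and 36.2% lower (58.6% either way), and the median was 2.36, against -0.12. Rescaling the libraries to a common median changed the split of all genes there to 3460 higher and 3518 lower calls, in place of 2827 and 4568.

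In vehicle chronic against acute libraries Ccl1, Ccl3, Ccl4 and Xcl1 rose and Cxcl10 fell, where 24.5% of tested genes were called higher and 34.4% lower (58.9% either way). The median of the 8 was 2.38, against -0.03 over all tested genes. N-acetylcysteine lowered 5 of the 8 against vehicle chronic libraries, Ccl1, Ccl3, Ccl4, Xcl1 and Cxcl10, and raised none, where 38.5% of tested genes were called higher and 22.6% lower (61.1% either way). The median there was -0.52, against 0.08, and after rescaling 3380 genes were higher and 4114 lower, in place of 4862 and 2854. Against vehicle acute libraries, NAC chronic libraries were higher in Ccl1, Ccl3, Ccl4 and Xcl1 and lower in Cxcl10, where 36.3% of tested genes were called higher and 29.9% lower (66.3% either way). The log2 changes were 4.03, 4.80, 3.16 and 4.65 for Ccl1, Ccl3, Ccl4 and Xcl1 and -1.15 for Cxcl10. The median was 1.57, against 0.04 over all tested genes. This contrast shares its libraries with the other 2 of the N-acetylcysteine experiment. Its split of all genes was 3610 higher and 4802 lower after rescaling, in place of 4587 and 3781.

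**Figure D3:**
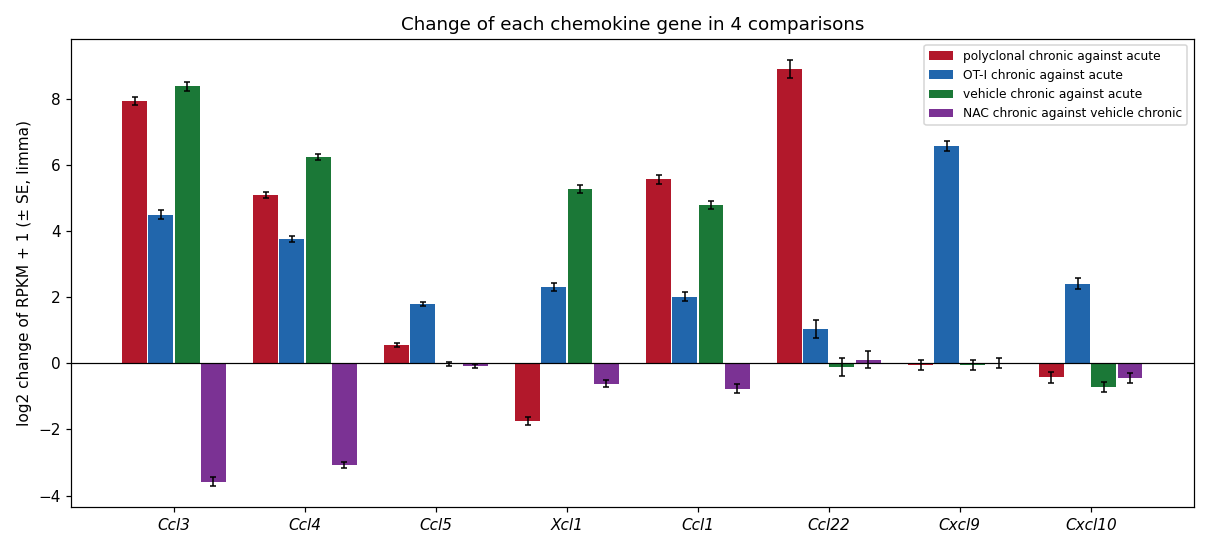
Log2 change of RPKM + 1 for each chemokine gene in 4 comparisons, with limma's standard error as bars. Ccl3 and Ccl4 rise in the 3 chronic against acute comparisons and fall by 3.58 and 3.08 with N-acetylcysteine, Xcl1 falls in the polyclonal comparison and rises in the other chronic against acute ones, and Cxcl9 rises by 6.57 in OT-I cultures.

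The chronic effect itself differed between the culture systems for most of the genes. In a test of the OT-I effect minus the polyclonal effect, 4 genes were higher (Ccl5, Xcl1, Cxcl9 and Cxcl10) and 4 lower (Ccl1, Ccl3, Ccl4 and Ccl22), where 26.6% of tested genes were called higher and 29.2% lower (55.8% either way). Against the vehicle effect, the OT-I effect was higher for Ccl5, Ccl22, Cxcl9 and Cxcl10 and lower for Ccl1, Ccl3, Ccl4 and Xcl1, where 27.4% of tested genes were called higher and 31.1% lower (58.5% either way). These differences share the OT-I libraries. The polyclonal effect exceeded the vehicle effect for Ccl1, Ccl5 and Ccl22 and was below it for Ccl4 and Xcl1, where 27.3% of tested genes were called higher and 25.1% lower (52.4% either way). The Ccl1 difference was 0.77 and did not pass with a pseudocount of 0.1 (0.28, adjusted p = 0.522) or with voom on recovered reads (0.29, adjusted p = 0.726), in a range of adjusted p of 3.29e-05 to 0.726 over all alternatives. For Xcl1 that difference was -7.01 on the log2 scale (SE 0.169, adjusted p = 1.35e-17), although the labels describe the same anti-CD3 protocol in C57BL/6 cells for both. For Ccl3 the polyclonal and vehicle effects differed by -0.44 (SE 0.190, adjusted p = 0.0576), which did not pass. It did pass with a pseudocount of 0.1 (adjusted p = 0.00693) and without polyclonal acute library 1 (adjusted p = 0.0353), polyclonal acute library 3 (adjusted p = 0.00842) or polyclonal chronic library 3 (adjusted p = 0.0465), in a range of 0.00693 to 0.239 over all alternatives. Mouse strain, stimulus, tumour cells and experiment change together between the OT-I and the other libraries and cannot be told apart.

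Ordered by mean level, the groups fell out differently for each gene, and the following orders are descriptions with no test. Ccl3 was highest in polyclonal chronic libraries, followed by vehicle chronic, OT-I chronic, NAC chronic, polyclonal acute, OT-I acute and vehicle acute libraries, with no overlap between neighbours. Ccl4 had a similar order, but polyclonal chronic and vehicle chronic libraries overlapped at the top. For Ccl4, NAC chronic also stood above OT-I chronic libraries, and vehicle acute above OT-I acute libraries. Ccl5 was highest in OT-I chronic libraries and lowest in polyclonal acute ones, and most groups between them overlapped with a neighbour. Xcl1 was highest in vehicle chronic, then NAC chronic, OT-I chronic and vehicle acute libraries, and lowest in polyclonal chronic ones, again with neighbours apart. For Ccl1 the order was polyclonal chronic, vehicle chronic, NAC chronic, OT-I chronic and polyclonal acute, and then vehicle acute and OT-I acute, which overlapped. Below the polyclonal chronic group, all neighbouring groups overlapped for Ccl22. Cxcl9 and Cxcl10 were highest in OT-I chronic and next in OT-I acute libraries, and their polyclonal chronic and polyclonal acute libraries overlapped.

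The receptors of these chemokines were measured in the same RNA, for 7 of 9 listed genes, of which 6 were tested. In polyclonal chronic against acute libraries 3 rose and 3 fell, where 28.6% of all tested genes were called higher and 35.5% lower, and the median log2 change was 0.84, against -0.08 over all tested genes. Ccr1, a receptor of Ccl3 and Ccl5, rose to 70.3 ± 5.19 RPKM in polyclonal chronic libraries, against 8.45 ± 0.644 RPKM in polyclonal acute ones (log2 change 2.92, adjusted p = 5.54e-16). Ccr8, the receptor of Ccl1, rose to 36.2 ± 0.238 RPKM in polyclonal chronic libraries, against 5.81 ± 0.522 RPKM in polyclonal acute ones (log2 change 2.45, adjusted p = 2.13e-14). Cxcr3, the receptor of Cxcl9 and Cxcl10, fell to 8.14 ± 0.247 RPKM in polyclonal chronic libraries, against 50.3 ± 2.30 RPKM in polyclonal acute ones (log2 change -2.49, adjusted p = 5.47e-15). Ccr4, the receptor of Ccl22, singled out after its values were seen, was at 21.3 ± 1.26 RPKM in polyclonal chronic and 4.43 ± 0.212 RPKM in polyclonal acute libraries.

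In OT-I chronic against acute libraries 3 receptor genes rose and 1 fell (all tested genes 22.4% higher and 36.2% lower), with a median of 0.23, against -0.12. The fall was that of Cxcr3, to 7.22 ± 0.621 RPKM in OT-I chronic libraries, against 15.01 ± 1.55 RPKM in OT-I acute ones (log2 change -0.96, adjusted p = 4.21e-08). Its ligands rose in the same libraries. In vehicle chronic against acute libraries 3 rose and 2 fell (all tested genes 24.5% higher and 34.4% lower), with a median of 0.67, against -0.03. Cxcr3 fell to 1.74 ± 0.515 RPKM in vehicle chronic libraries, against 109.8 ± 6.41 RPKM in vehicle acute ones (log2 change -5.35, adjusted p = 2.74e-20). Ccr1 rose to 20.9 ± 0.417 RPKM in vehicle chronic libraries, against 1.41 ± 0.0897 RPKM in vehicle acute ones. Ccr8 was at 25.9 ± 1.55 RPKM in vehicle chronic and 2.32 ± 0.156 RPKM in vehicle acute libraries (log2 change 3.02, adjusted p = 9.36e-16).

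With N-acetylcysteine 2 receptor genes rose and 4 fell against vehicle chronic libraries (all tested genes 38.5% higher and 22.6% lower), with a median of -0.72, against 0.08 over all tested genes. Ccr1 fell to 2.49 ± 0.310 RPKM in NAC chronic libraries, against 20.9 ± 0.417 RPKM in vehicle chronic ones (log2 change -2.66, adjusted p = 5.61e-15). Xcr1 fell to 1.5003 ± 0.0570 RPKM in NAC chronic libraries, against 8.13 ± 0.559 RPKM in vehicle chronic ones (log2 change -1.87, adjusted p = 2.97e-12). Cxcr3 rose to 5.58 ± 0.176 RPKM in NAC chronic libraries, against 1.74 ± 0.515 RPKM in vehicle chronic ones (log2 change 1.28, adjusted p = 4.31e-10). Ccr8, also singled out after its values were seen, rose to 43.8 ± 1.51 RPKM in NAC chronic libraries, against 25.9 ± 1.55 RPKM in vehicle chronic ones, while its ligand gene Ccl1 fell. Against vehicle acute libraries 2 receptor genes were higher and 3 lower in NAC chronic libraries (all tested genes 36.3% higher and 29.9% lower), with a median of -0.38, against 0.04.

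Of 29 other chemokine ligand genes, 9 were in the table and all 9 were tested. In polyclonal chronic against acute libraries 5 rose and 1 fell (all tested genes 28.6% higher and 35.5% lower), with a median log2 change of 1.02, against -0.08. Ccl9, a CCR1 ligand of mice, is encoded between Ccl5 and Ccl3. It rose to 79.5 ± 5.15 RPKM in polyclonal chronic libraries, against 0.757 ± 0.867 RPKM in polyclonal acute ones (log2 change 5.63, adjusted p = 1.73e-14). Ccl17, the other CCR4 ligand, rose to 21.3 ± 1.51 RPKM in polyclonal chronic libraries, against 0.369 ± 0.313 RPKM in polyclonal acute ones (log2 change 4.05, adjusted p = 1.56e-12), and Ccl22 was 44.1 ± 1.27 times as high as Ccl17 in polyclonal chronic libraries. The neutrophil-attracting Cxcl3 rose to 15.5 ± 1.40 RPKM in polyclonal chronic libraries, against 0.286 ± 0.242 RPKM in polyclonal acute ones (log2 change 3.69, adjusted p = 2.16e-13).

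In OT-I chronic against acute libraries 3 of the 9 rose and none fell (all tested genes 22.4% higher and 36.2% lower), with a median of -0.02, against -0.12. Cxcl11, a relative of Cxcl9 and Cxcl10 that RefSeq lists as a transcribed pseudogene in this strain, rose to 163 ± 1.80 RPKM in OT-I chronic libraries, against 19.3 ± 1.24 RPKM in OT-I acute ones (log2 change 3.02, adjusted p = 2.91e-10). In vehicle chronic against acute libraries 2 rose and 1 fell (all tested genes 24.5% higher and 34.4% lower), with a median of 0.14, against -0.03. Ccl9 was at 52.0 ± 2.06 RPKM in vehicle chronic and 0.0987 ± 0.0659 RPKM in vehicle acute libraries (log2 change 5.59, adjusted p = 2.41e-14). N-acetylcysteine lowered Ccl9 to 2.90 ± 0.195 RPKM in NAC chronic libraries, against 52.0 ± 2.06 RPKM in vehicle chronic ones (log2 change -3.77, adjusted p = 2.1e-11), a fall of the size of that of Ccl3. It was the single one of the 9 that fell, and 3 rose, among them Ccl25 and Ccl27a by 0.67 and 0.83 on the log2 scale (all tested genes 38.5% higher and 22.6% lower, median of the 9 -0.02, against 0.08). Against vehicle acute libraries 4 were higher and 1 lower in NAC chronic ones (all tested genes 36.3% higher and 29.9% lower, median of the 9 0.24, against 0.04).

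Genes of interferon-γ signalling, which induces Cxcl9 and Cxcl10, moved in both directions, as did all tested genes. Of 15 tested, 9 rose and 4 fell in polyclonal chronic, 4 rose and 8 fell in OT-I chronic and 2 rose and 9 fell in vehicle chronic against acute libraries. Over all tested genes 28.6% were higher and 35.5% lower in the polyclonal, 22.4% and 36.2% in the OT-I and 24.5% and 34.4% in the vehicle comparison. The medians were 0.29, -0.17 and -0.39, against -0.08, -0.12 and -0.03 over all tested genes. Ifng itself rose in all 3. It was at 118 ± 9.94 RPKM in polyclonal chronic and 7.38 ± 0.960 RPKM in polyclonal acute libraries, and at 632 ± 11.9 RPKM in OT-I chronic and 6.82 ± 0.635 RPKM in OT-I acute libraries. In the N-acetylcysteine experiment it was at 118 ± 3.91 RPKM in NAC chronic, 430.5 ± 9.20 RPKM in vehicle chronic and 4.67 ± 0.538 RPKM in vehicle acute libraries. Vehicle chronic libraries had this high Ifng level beside 0 to 1 reads of Cxcl9.

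N-acetylcysteine raised 10 of the 15 and lowered 4 (all tested genes 38.5% higher and 22.6% lower), with a median of 0.73, against 0.08. Against vehicle acute libraries 5 were higher and 3 lower (all tested genes 36.3% higher and 29.9% lower). The MHC class I activator gene Nlrc5 rose to 59.8 ± 2.86 RPKM in NAC chronic libraries, against 11.3 ± 0.770 RPKM in vehicle chronic ones (log2 change 2.31, adjusted p = 2.49e-13), and was at 56.7 ± 2.65 RPKM in vehicle acute libraries. Irf1, a transcription factor gene of the interferon response, was singled out after its values were seen. It was at 62.5 ± 1.499 RPKM in NAC chronic, 30.0 ± 1.49 RPKM in vehicle chronic and 61.6 ± 0.757 RPKM in vehicle acute libraries, and at 237 ± 4.89 RPKM in OT-I chronic and 106 ± 3.22 RPKM in OT-I acute libraries.

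Of 17 NF-kB factors and feedback genes tested, 10 rose and 4 fell in polyclonal chronic, 10 rose and 3 fell in OT-I chronic and 14 rose and none fell in vehicle chronic against acute libraries. The shares of all tested genes called higher and lower were 28.6% and 35.5% in the polyclonal, 22.4% and 36.2% in the OT-I and 24.5% and 34.4% in the vehicle comparison. The medians were 0.40, 0.25 and 0.80, against -0.08, -0.12 and -0.03 over all tested genes. The NF-kB subunit gene Rel was at 35.7 ± 4.51 RPKM in polyclonal chronic and 12.5 ± 0.916 RPKM in polyclonal acute libraries (log2 change 1.44, adjusted p = 1.23e-09). In OT-I cultures Rel was at 9.15 ± 0.919 RPKM in chronic and 4.18 ± 0.969 RPKM in acute libraries (log2 change 0.98, adjusted p = 6.19e-07).

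With N-acetylcysteine 7 of the NF-kB genes were higher and 7 lower against vehicle chronic libraries (all tested genes 38.5% higher and 22.6% lower), with a median of -0.07, against 0.08. Against vehicle acute libraries 14 were higher and none lower (all tested genes 36.3% higher and 29.9% lower). Bcl3, a nuclear IkB protein gene, fell to 23.5 ± 1.92 RPKM in NAC chronic libraries, against 56.3 ± 3.02 RPKM in vehicle chronic ones (log2 change -1.23, adjusted p = 1.29e-12). Tnfaip3, which encodes the feedback inhibitor A20, was at 102 ± 1.83 RPKM in NAC chronic, 89.3 ± 1.56 RPKM in vehicle chronic and 8.96 ± 0.466 RPKM in vehicle acute libraries. Rel was at 26.3 ± 1.51 RPKM in NAC chronic, 28.8 ± 0.761 RPKM in vehicle chronic and 6.37 ± 1.18 RPKM in vehicle acute libraries.

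**Figure D4:**
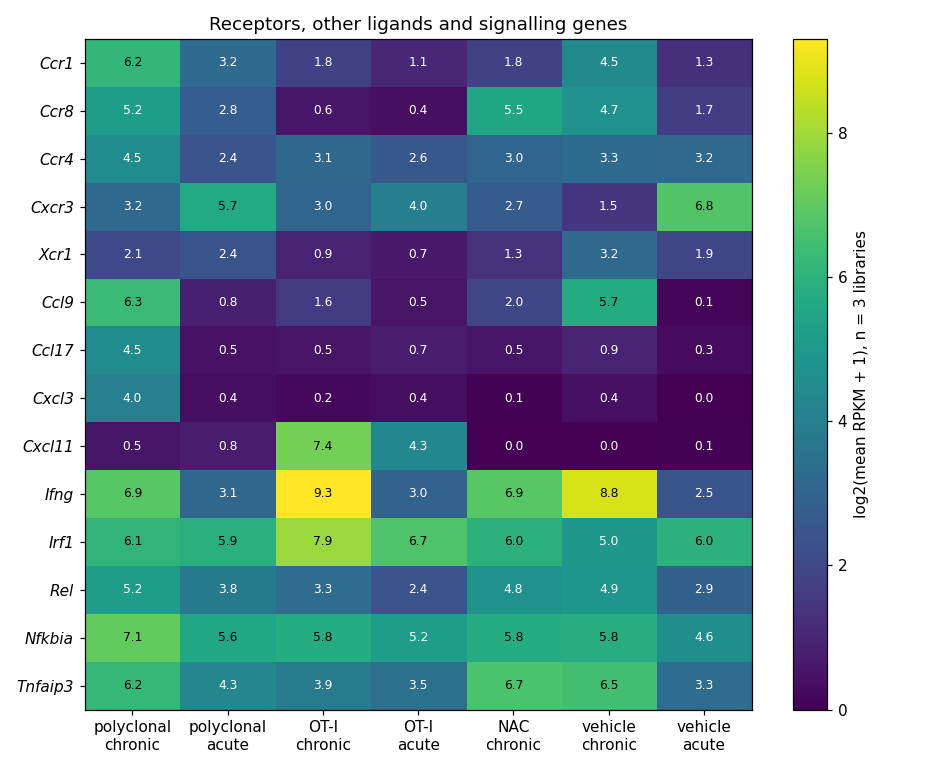
Log2 of mean RPKM + 1 (n = 3 libraries) of 14 genes in the 7 groups, as numbers and colours. The genes are receptors of the chemokines, other ligands, interferon-γ signalling and NF-kB genes, and Irf1 was chosen after its values were seen. Cxcr3 is highest in vehicle acute libraries (109.8 RPKM), Ccl9 in polyclonal chronic (79.5 RPKM) and vehicle chronic libraries (52.0 RPKM), and Cxcl11 in OT-I libraries.

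For each chemokine the genes with the most similar pattern were sought over the 7 group means of log2(RPKM + 1), among 2371 genes whose means spanned at least 2 log2 units. With 7 points that share libraries, the correlations are descriptions. Cd40 and Enam were most like Ccl22 (Pearson r of 0.998 and 0.994). Cd40, a costimulatory receptor of B cells and dendritic cells, was at 10.4 ± 1.03 RPKM in polyclonal chronic and 0.367 ± 0.429 RPKM in polyclonal acute libraries. Serpine2 and Gap43 were most like Ccl3 (r of 0.984 and 0.974), and Rgs1 and Itga3 most like Ccl4 (r of 0.981 and 0.974). Rgs1, a regulator of G protein signalling, was at 139 ± 2.04 RPKM in NAC chronic, 518 ± 7.27 RPKM in vehicle chronic and 48.8 ± 1.66 RPKM in vehicle acute libraries.

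Orai1 and Pdcd1lg2, which encode a calcium channel of the T cell receptor pathway and PD-L2, were most like Ccl1 (r of 0.986 for both). Spry2 and Irf8 were most like Xcl1 (r of 0.977 and 0.968). Irf8, a transcription factor gene, was at 266 ± 4.53 RPKM in NAC chronic, 392 ± 4.82 RPKM in vehicle chronic and 30.5 ± 2.82 RPKM in vehicle acute libraries. Apol6 and Apod were most like Cxcl9 (r of 0.998 and 0.994), and Apol10b and Cp most like Cxcl10 (r of 0.998 and 0.996). All 4 had their highest level in OT-I chronic libraries, where Apol6 was at 84.9 ± 2.50 RPKM, against 2.83 ± 0.581 RPKM in OT-I acute ones. No gene followed Ccl5 as closely, with Rmdn3 at r = 0.927 and Gja4 at r = 0.892.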

How the data were processed

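The authors deposited RPKM values per gene for 21 poly(A) libraries in 7 groups of 3. Per the submitters' processing notes, the tools were bcl2fastq 2.17, HTSeq and edgeR, and the genome was mm9. Aligner, annotation and strand setting are not named in these sources. Reads were recovered from the steps between RPKM values, as whole multiples within a tolerance of 0.001. For 100% of genes the gene length that these reads imply was close to a whole number. These reads, of which the polyclonal libraries have fewest, served for depth, for floors of 3 reads, which cover counting error only, and for 1 alternative test.

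The RPKM values were analysed as log2(RPKM + 1) with limma 3.58.1 in R 4.3.3, in 1 fit of all 21 libraries with a mean per group, 14 residual degrees of freedom and a mean-variance trend. Genes needed an RPKM of at least 1 in at least 3 libraries. Tests were two-sided, with Benjamini-Hochberg adjustment over 12630 genes and calls at adjusted p under 0.05. The fit was tested on simulated data. Ratios were compared by exact permutation in Python 3.11.15 with scipy 1.17.1. Symbols were matched to a gene name table for 12867 of 13202 genes. The 8 members and all gene lists were chosen with earlier results of these data known. From each list, up to 3 genes per comparison were named, those of largest change among called genes with no overlap between groups and a mean of at least 1 RPKM in the higher group, while Irf1, Ccr4 and, with N-acetylcysteine, Ccr8 were added after their values were seen, and for likeness the 2 genes of highest correlation.

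Replicate numbers came from the labels, which do not say that they mark a shared animal or day. In the polyclonal experiment same-numbered libraries deviated together (r of 0.446, 0.629 and 0.168 for numbers 1, 2 and 3), so they were treated as pairs in an alternative fit, a pairing taken from the data. However, polyclonal chronic library 3 deviated most like polyclonal acute library 1. In the other comparisons no r between same-numbered libraries exceeded 0.1, and the lowest was -0.167 in OT-I cultures. Vehicle chronic and NAC chronic libraries were each most like the vehicle acute library of their own number, at r of at most 0.0790. No pair among 21 within-group library pairs was identical. The alternatives tried were leaving out the filter or raising it to 5 RPKM, a smaller pseudocount (0.1), rescaling to a common median, fitting only the compared groups, a replicate block, voom on the recovered reads, leaving out each library and, chosen after seeing the data, leaving out the 3 libraries with raised low genes together. Some genes of the lists are not reported here by name.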

Additional observations from a re-analysis of the deposited data

Results flagged for a closer look

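The chronic minus acute effect was compared between experiments with limma interaction contrasts on log2(RPKM + 1), adjusted over all 12630 tested genes, and 21 of 24 such differences passed among the 8 genes. Over all tested genes 55.8% passed for OT-I minus polyclonal, 58.5% for OT-I minus vehicle and 52.4% for polyclonal minus vehicle, either way. Culture, stimulus, strain and experiment change together in the comparisons with OT-I cells.

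The OT-I effect minus the polyclonal effect was negative for 4 genes. It was -7.87 for Ccl22 (adjusted p = 6.88e-13), -3.55 for Ccl1 (adjusted p = 2.08e-12), -3.44 for Ccl3 (adjusted p = 5.39e-12) and -1.33 for Ccl4 (adjusted p = 1.43e-08). It was positive for Cxcl9 at 6.61 (adjusted p = 1.07e-15), Xcl1 at 4.06 (adjusted p = 6.97e-14), Cxcl10 at 2.84 (adjusted p = 1.1e-09) and Ccl5 at 1.25 (adjusted p = 1.43e-10).

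Against the vehicle effect, the OT-I effect was higher by 6.62 for Cxcl9 (adjusted p = 1.06e-15), 3.12 for Cxcl10 (adjusted p = 2.52e-10), 1.83 for Ccl5 (adjusted p = 4.01e-13) and 1.15 for Ccl22 (adjusted p = 0.0135), which ranged from 0.88 to 3.93 over the alternatives with adjusted p up to 0.0483. The differences were -3.89 for Ccl3 (adjusted p = 8.85e-13), -2.95 for Xcl1 (adjusted p = 9.57e-12), -2.78 for Ccl1 (adjusted p = 8.7e-11) and -2.48 for Ccl4 (adjusted p = 1.11e-12).

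The polyclonal effect minus the vehicle effect, both from anti-CD3 on C57BL/6 cells, was 9.03 for Ccl22 (adjusted p = 7.26e-14), 0.77 for Ccl1 (adjusted p = 0.00143) and 0.58 for Ccl5 (adjusted p = 8.18e-06). The Ccl1 difference did not pass with a pseudocount of 0.1 (0.28, adjusted p = 0.522) or with voom (0.29, adjusted p = 0.726). The difference was -7.01 for Xcl1 (adjusted p = 1.35e-17) and -1.15 for Ccl4 (adjusted p = 1.29e-07). Cd8a was at 8.30 to 8.63 RPKM in polyclonal chronic and 144 to 146 RPKM in vehicle chronic libraries, and its part in these differences was not tested.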

How the results depend on the processing

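All counts of called genes and of called chemokine genes stayed within 1.5 times under every alternative, and no called direction reversed. With the replicate block, which is a pairing from the data in the polyclonal experiment, 8661 genes were called in polyclonal chronic, 7947 in OT-I chronic and 7745 in vehicle chronic against acute libraries, 8006 in NAC chronic against vehicle chronic and 8656 in NAC chronic against vehicle acute libraries, and no call on the 8 chemokine genes changed. Leaving out the 3 libraries with raised low genes, an alternative chosen after seeing the data, kept 7 chemokine genes called in the polyclonal and 8 in the OT-I comparison. Leaving out 1 library at a time changed the sign of 6 uncalled log2 values. They ranged from -0.23 to 0.15 for Cxcl9 in polyclonal chronic against acute, from -0.066 to 0.030 for Ccl5 in vehicle chronic against acute, from -0.010 to 0.021 for Cxcl9 in NAC chronic against vehicle chronic, from -0.046 to 0.045 for Ccl22 and from -0.073 to 0.0067 for Cxcl9 in NAC chronic against vehicle acute, and from -0.18 to 0.21 for Cxcl9 in the polyclonal minus the vehicle effect. A pseudocount of 0.1 or voom ended the call for Ccl1 in the polyclonal minus the vehicle effect (adjusted p = 0.522 and 0.726). With that pseudocount, Ccl3 (-0.77, adjusted p = 0.00693) and Cxcl10 (0.87, adjusted p = 0.0355) passed in the same contrast. Ccl3 also passed there without polyclonal acute library 1 (adjusted p = 0.0353) or 3 (adjusted p = 0.00842) or polyclonal chronic library 3 (adjusted p = 0.0465). Rescaling made Ccl5 pass as lower in NAC chronic than in vehicle acute libraries (-0.26, adjusted p = 0.00368). Depth limits Cxcl9, Cxcl10 and Ccl22 in the N-acetylcysteine experiment. The causes of these changes were not tested.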
